A study of Caenorhabditis elegans with 2 samples.

Results

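The gene mdl-1 of Caenorhabditis elegans and the sequence around it were examined for binding of the protein that mdl-1 itself encodes. The regions described are those whose summit, the position that the authors' peak caller marked as highest, lay on chromosome X within 20 kb of either end of mdl-1. They were chosen by position alone, with earlier results of these data known. In the optimal list 17 of 1076 peaks met this rule, in the pooled list 33 of 30000 regions, in replicate 1's own list 39 of 30000 and in replicate 2's own list 35 of 30000. The optimal list is the part of the pooled list that the authors kept. They did so after comparing how regions ranked in the replicates (the irreproducible discovery rate, IDR). Its peaks were the 1076 pooled regions of highest signal, down to 48.3.

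The material was whole L2 larvae of strain OP355, of mixed sex, as 2 biological replicates of 1 group. The worms carried the unc-119(tm4063) mutation on chromosome III and the integrated transgene wgIs355, labelled as targeting mdl-1. One label on both samples names KLU-1 as the fusion protein with a C-terminal GFP-FLAG tag, while the antibody, strain and experiment labels name MDL-1. The assay was chromatin immunoprecipitation with sequencing (ChIP-seq) of sonicated chromatin, and no second condition was analysed here. An integrated transgene adds copies of the DNA it carries, and which stretch of the locus wgIs355 holds is not given in the sources used here, so signal from the native locus and from the transgene cannot be told apart.

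MDL-1 is the worm relative of the Mad proteins of mammals. Mad proteins are basic helix-loop-helix leucine zipper factors that pair with Max, bind the E-box CACGTG and repress genes that Myc-Max complexes activate in mammals. In C. elegans the Max-like partner of MDL-1 is MXL-1, while MXL-2 pairs with the Mondo-like factor MML-1.

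The results turn on 8 stretches of the locus, whose ce11 sequence is given 5′ to 3′ on the forward strand, on which mdl-1 is transcribed. Those of peaks 1, 2, 3, 18, 19 and 791 are the optimal peaks near mdl-1 with CACGTG within 50 bp of the summit. Those of peaks 8 and 12 are the 2 strongest without it. Peaks are numbered by their signal rank in the optimal list, each window spans 50 bp to each side of the summit, that of peak 8 starts at the first base of intron 2 of mdl-1, and capitals mark CACGTG.
Peak 1, upstream of mdl-1 (chrX:6742207-6742307): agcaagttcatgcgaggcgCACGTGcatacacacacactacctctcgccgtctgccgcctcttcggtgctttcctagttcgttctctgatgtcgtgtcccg
Peak 2, intergenic (chrX:6737720-6737820): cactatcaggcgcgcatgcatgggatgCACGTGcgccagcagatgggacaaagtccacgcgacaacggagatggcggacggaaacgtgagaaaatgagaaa
Peak 3, intron of abts-4 (chrX:6750234-6750334): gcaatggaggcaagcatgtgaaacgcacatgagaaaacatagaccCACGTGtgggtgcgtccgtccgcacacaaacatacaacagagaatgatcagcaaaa
Peak 18, downstream of mdl-1 (chrX:6743977-6744077): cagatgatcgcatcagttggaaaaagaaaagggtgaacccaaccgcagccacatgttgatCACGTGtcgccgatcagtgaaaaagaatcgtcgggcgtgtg
Peak 19, intron of abts-4 (chrX:6749470-6749570): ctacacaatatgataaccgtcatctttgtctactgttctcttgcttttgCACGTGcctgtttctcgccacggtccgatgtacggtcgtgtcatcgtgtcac
Peak 791, intergenic (chrX:6735757-6735857): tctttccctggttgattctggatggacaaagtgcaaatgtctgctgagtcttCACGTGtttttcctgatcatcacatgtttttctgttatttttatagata
Peak 8, intron 2 of mdl-1 (chrX:6742970-6743113): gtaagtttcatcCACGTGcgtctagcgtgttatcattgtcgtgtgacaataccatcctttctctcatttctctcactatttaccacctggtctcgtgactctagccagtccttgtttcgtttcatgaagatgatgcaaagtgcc
Peak 12, intergenic (chrX:6740707-6740807): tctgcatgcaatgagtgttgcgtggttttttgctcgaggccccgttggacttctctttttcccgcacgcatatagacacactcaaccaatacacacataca

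The mdl-1 gene spans X from 6742351 to 6743899 on the forward strand in Ensembl release 115 and has 3 exons and 2 introns. Its neighbours upstream, all on the reverse strand, are R03E9.2, K11G12.6, slc-25A10, named for the mitochondrial solute carriers, and smf-1, a divalent metal transporter gene. Downstream lies abts-4, of the anion and bicarbonate transporter family, also on the reverse strand. The window further holds 5 ncRNA genes and 1 piRNA gene. The 17 optimal summits were 8 upstream of mdl-1, 1 inside it and 8 downstream. Of the 17, 11 (64.7%) were intergenic, 5 (29.4%) lay in introns and 1 (5.88%) lay in an ncRNA gene, against 56.7%, 29.3% and 8.59% of the other 1059 optimal peaks in intergenic sequence, introns and genes that code for no protein. Coding exons and UTRs held 0 of the 17, and they held few of the others, with 14 of 1059 in coding exons, 35 in 5′ UTRs and 9 in 3′ UTRs. By these classes of location the 17 were thus close to the rest of the list. Their share near the starts of protein-coding genes was lower, as given below.

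**Figure D1:**
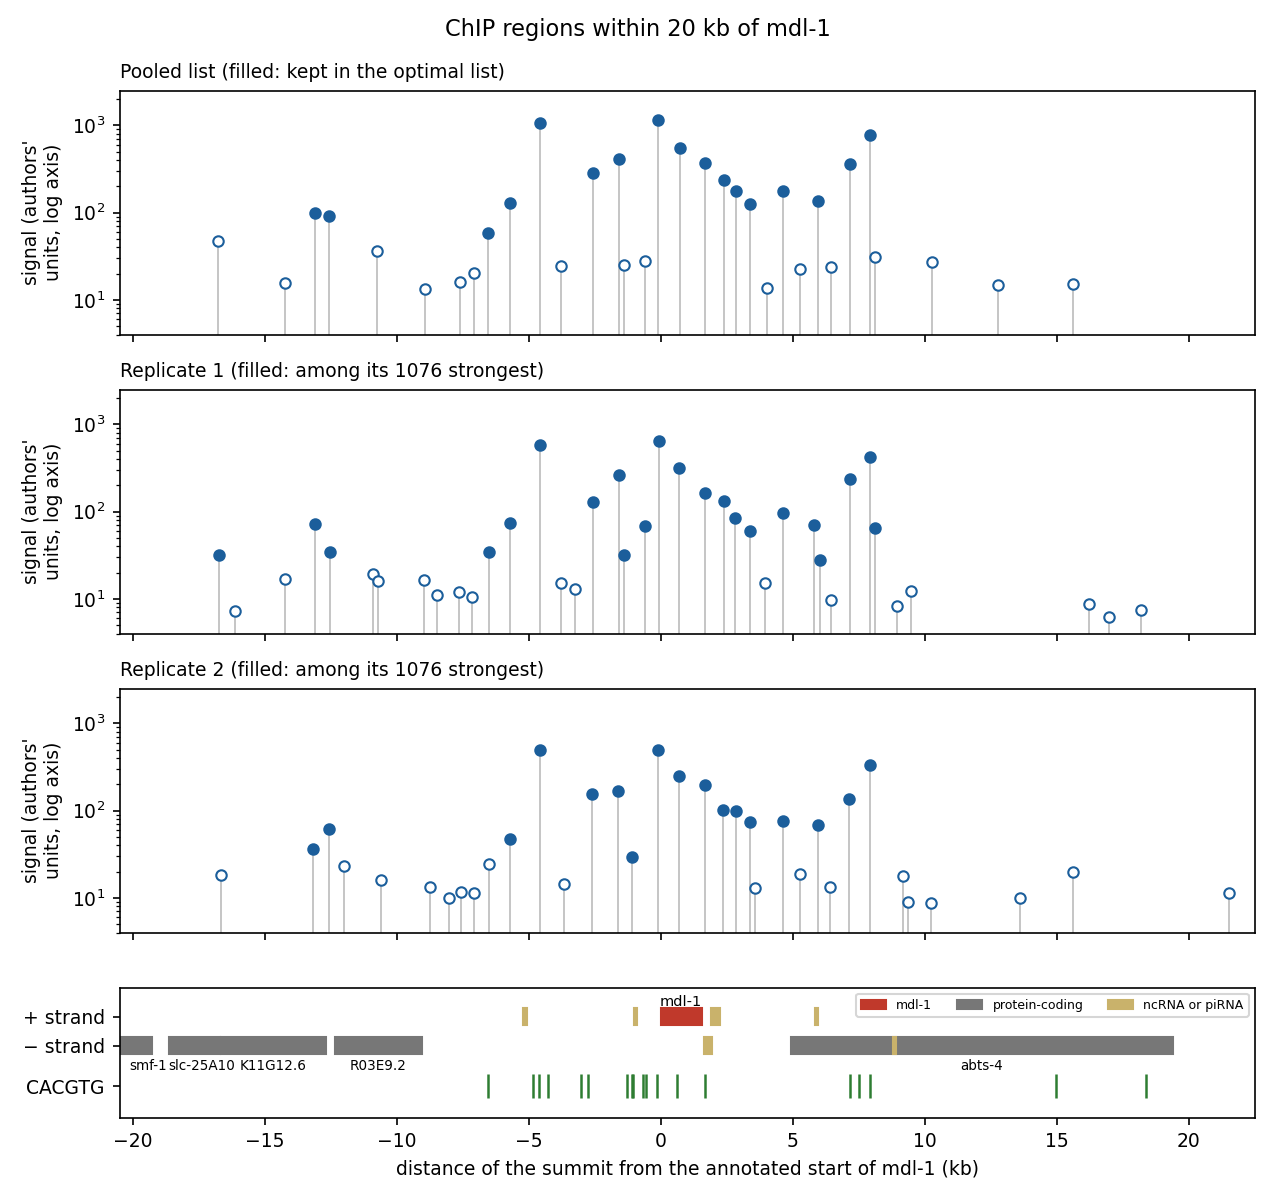
Signal of each listed region in the authors' units (log axis) against the distance of its summit from the annotated start of mdl-1 in kb, for the pooled list, replicate 1 and replicate 2, above the annotated genes of each strand and the CACGTG sites. Filled points are the 17 regions kept in the optimal list (top) or the regions among the 1076 strongest of that replicate, 22 in replicate 1 and 17 in replicate 2, and they run from 13083 bp before to 7933 bp after the start in the top panel.

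Signal was highest just upstream of mdl-1. The deposited signal of a region has no stated scale. It is therefore read within a list, together with its rank there, or for the same peak in both replicates. Peak 1 had its summit at position 6742257 of X, 94 bp before the annotated start of the gene and 28.5 bp from the centre of a CACGTG. It had a signal of 1134 in the optimal list, 642 in replicate 1 and 497 in replicate 2, and it ranked first in all of them. Its region, 580 bp wide, was the widest of the optimal list. Within the same upstream sequence, peak 12 lay 1594 bp before the start, with a signal of 415 in the optimal list, 259 at rank 12 in replicate 1 and 167 at rank 16 in replicate 2. Peak 28 lay 2559 bp before the start, with 283 in the optimal list, 127 at rank 49 in replicate 1 and 155 at rank 19 in replicate 2. Neither had CACGTG within 50 bp of its summit. The nearest CACGTG was 328.5 bp from the summit of peak 12 and 200.5 bp from that of peak 28.

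The second strongest peak of the optimal list was further upstream in the same intergenic stretch. Peak 2 had its summit at position 6737770, 4581 bp before mdl-1 and 20.5 bp from a CACGTG, with a signal of 1054 in the optimal list, 577 in replicate 1 and 492 in replicate 2. It ranked 2 in each of these lists. Its 546 bp region held a second CACGTG. The nearest start of a protein-coding gene was that of R03E9.2, 4469 bp away. Beyond it lay peak 204, with signals of 127, 73.4 and 47.6 in the optimal list, replicate 1 and replicate 2, and peak 791, with 57.9, 34.0 and 24.8. Peak 791 had the lowest signal of the 17, although its summit lay 4.5 bp from the centre of a CACGTG, and it ranked 1231 in replicate 2, just outside that list's 1076 strongest. In all, the 9049 bp between R03E9.2 and mdl-1 held 6 of the 17 summits, 12 CACGTG sites and 49.9% of the summed signal of the 17.

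Inside mdl-1 the single summit lay in an intron. Peak 8, with its summit at position 6743063, was in intron 2, which runs from 6742970 to 6743258 between exons 2 and 3. Its signal was 551 in the optimal list, 312 at rank 7 in replicate 1 and 251 at rank 9 in replicate 2. Its region held a CACGTG 78.5 bp from the summit, close to the 5′ end of the intron, which is outside the 50 bp window and therefore not counted. Of the 11 optimal peaks without CACGTG within 50 bp, peak 8 was the strongest.

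Signal was lower behind the gene. Peak 18, 128 bp beyond the end of mdl-1 and inside the ncRNA gene R03E9.10, had a signal of 366 in the optimal list, 165 at rank 26 in replicate 1 and 198 at rank 14 in replicate 2, with a CACGTG 12.5 bp from its summit. After it came peaks 45, 101, 207 and 103, at 836, 1304, 1822 and 3076 bp beyond the gene, with optimal signals of 234, 176, 127 and 175. In replicate 1 their signals were 133, 84.9, 60.2 and 95.1, and in replicate 2 they were 101, 99.4, 74.5 and 76.2. All 4 lacked CACGTG within 50 bp and none ranked below 280 in either replicate. These 5 peaks made up the 3396 bp between mdl-1 and abts-4, which held 1 CACGTG and 17.5% of the summed signal of the 17.

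A second rise lay inside abts-4, far from the start of that gene. Peak 3, with its summit at position 6750284, had a signal of 764 in the optimal list, 420 in replicate 1 and 337 in replicate 2 and ranked 3 in each. Peak 19, at position 6749520, had 361 in the optimal list, 234 at rank 15 in replicate 1 and 136 at rank 28 in replicate 2. Both were in intron 17 of the abts-4 model R03E9.3a.1, which runs from 6749020 to 6751478, with CACGTG centred 2.5 bp and 1.5 bp from their summits. Peak 181, in intron 19 of the same model, had 135, 69.9 and 68.4 in the optimal list, replicate 1 and replicate 2 and no CACGTG within 50 bp, and its summit lay 108 bp from the start of the ncRNA gene R03E9.8. The start of abts-4 was 11454 bp from the nearest optimal summit, that of peak 3, and beyond position 6750284 no region of the window was kept in the optimal list.

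On the other side, a pair of weaker peaks stood apart from the rest at K11G12.6, 6006 bp before the next summit. Peak 385, 144 bp from the nearest annotated start of K11G12.6, had signals of 90.6 in the optimal list, 34.7 at rank 700 in replicate 1 and 60.9 at rank 202 in replicate 2. Peak 327 lay in an intron of the longer K11G12.6 model, 389 bp downstream of the outermost start of the gene. It had 99.3 in the optimal list, 72.5 at rank 193 in replicate 1 and 36.4 at rank 559 in replicate 2. The replicates thus ranked these neighbours in opposite order. With peak 1, they were the only ones of the 17 in a promoter window, taken as 1000 bp before and 200 bp after each start of a protein-coding transcript. That is 3 of 17, 17.6% (95% exact binomial interval 3.80 to 43.4), against 536 of 1059 other optimal peaks, 50.6% (47.6 to 53.7), and 50.1% of all optimal peaks. The difference was not tested, and the 17 are neighbours in 1 locus. Peak 327 was counted through another start of K11G12.6, since 389 bp exceeds the 200 bp allowed after a start. No optimal summit lay in a promoter window of R03E9.2, slc-25A10, smf-1 or abts-4.

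The peaks near mdl-1 were strong beside those of the rest of the genome. Their median signal in the optimal list was 234, with a range of 57.9 to 1134, against a median of 72.1 for the other 1059 peaks, the highest of which had 725. Of the 10 strongest optimal peaks 4 were at mdl-1, of the 20 strongest 7, and of the 50 strongest 9. In replicate 1's own list the window held 4 of the 10 strongest and 6 of the 20 strongest regions, and in replicate 2's 4 and 7. The 17 peaks made up 5.74% of the optimal peaks on X and 18.4% of the summed signal there. The 3 strongest alone held 48.0% of the signal of the 17. The deposited −log10 q-value did not separate them, since 16 of the 17 were at its maximum of 3.11, as were 643 peaks in all.

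Widths differed as well. Regions wider than the common 340 bp numbered 5 of 17 at mdl-1, with signals of at least 415, against 4 of the other 1059, with signals of 54.3 to 301. Regions narrower than 340 bp numbered 6 of 17, against 144 of 1059. How the caller set the width is not given in the sources used here.

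The replicates placed these peaks at nearly the same positions. All 17 overlapped a region in both full replicate lists, and 16 of 17 (94.1%, 95% exact interval 71.3 to 99.9) overlapped 1 of the 1076 strongest regions of both, against 687 of 1059 other optimal peaks (64.9%, 61.9 to 67.8) and 65.3% of all. Peaks 1, 2 and 3 kept the same rank in both, 8 ranked better in replicate 1 and 6 in replicate 2. The median distance between a peak's optimal summit and its summit in the replicate was 9 bp in replicate 1 and 7 bp in replicate 2, against 11 bp in each for the other optimal peaks, and the largest was 137 bp, at peak 181 in replicate 1. The ratio of a peak's signal in replicate 1 to that in replicate 2 had a median of 1.25 and ran from 0.571 at peak 385 to 1.99 at peak 327. For the other 1053 optimal peaks matched in both, its median was 1.11 with quartiles at 0.844 and 1.43. The optimal list was thresholded by comparing these same libraries and held the strongest pooled regions. Rank in each replicate also follows signal, and the 17 had a higher median signal than the other optimal peaks, 234 against 72.1. The comparison of replicates thus describes the peaks and does not test them.

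**Figure D2:**
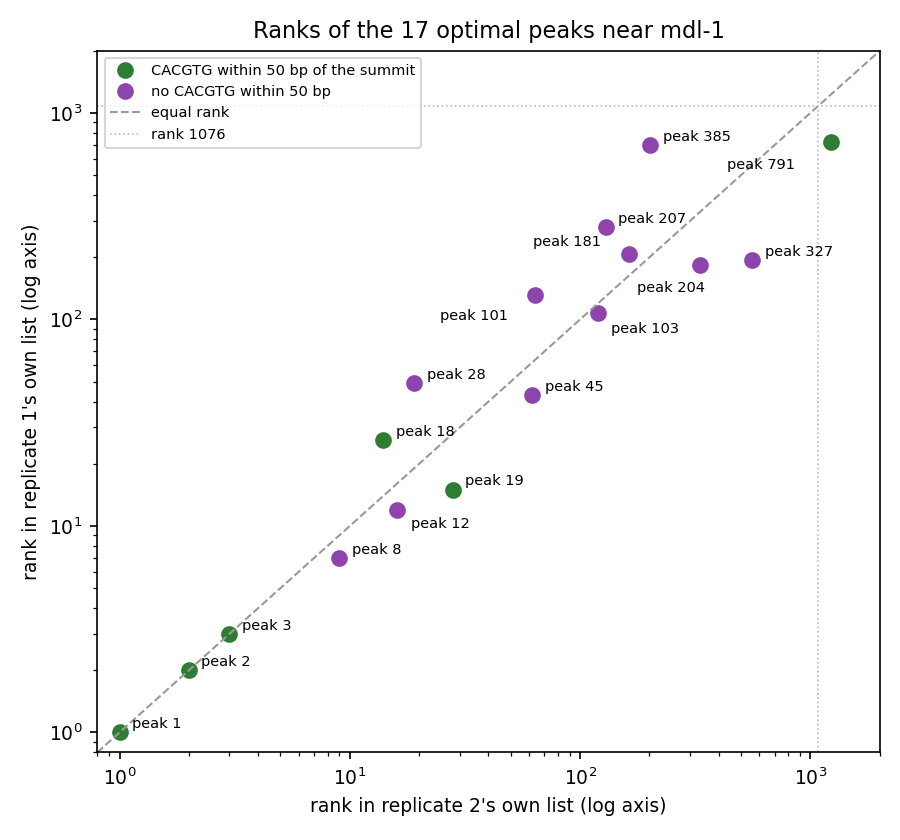
Rank of each of the 17 optimal peaks near mdl-1 in replicate 1's own list (vertical, log axis) against its rank in replicate 2's (horizontal, log axis), where 1 is the strongest signal of the list. Peaks 1, 2 and 3 lie on the line of equal rank, peaks 385 and 327 lie on opposite sides of it, and peak 791, at 726 and 1231, is the only one beyond rank 1076 in either.

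Weaker regions lay among the optimal peaks and beyond them. Of the 33 pooled regions of the window, 17 were kept in the optimal list, 51.5%, while 3.59% of all pooled regions were. Since the optimal list held the pooled regions of highest signal, this share restates how strong the regions of the window were. The 16 that were not kept were weaker by that rule. They had signals from 13.3 to 47.1, with a median of 23.1, against a median of 17.1 for the whole pooled list. Of these, 10 lay between optimal summits, 2 before the first and 4 after the last. The strongest of these, at rank 1120 and 16762 bp upstream, had its summit in a coding exon of slc-25A10 and in that gene's promoter window. Its signal of 47.1 was just under the lowest of the optimal list, 48.3, and it ranked 820 in replicate 1 and 3379 in replicate 2. Taking the 1076 strongest of each replicate, which are again 3.59% of its regions, the window held 22 of 39 in replicate 1 and 17 of 35 in replicate 2.

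Replicate 1 had several strong summits that the optimal list did not keep. The one with the best rank, 220, lay 590 bp upstream of mdl-1 with a signal of 68.1, between CACGTG sites 657 and 542 bp upstream. No region of replicate 2 had a summit there, and in the pooled list the same position had 27.8 at rank 3493. Replicate 2 had 1 such region, 1092 bp upstream of mdl-1 with a signal of 29.3 at rank 849, with CACGTG within 50 bp of its summit. A further summit of replicate 1, with 65.1 at rank 243, was a shoulder within the region of peak 3 and had 30.9 at rank 2586 in the pooled list.

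CACGTG was dense in this window. It held 19 sites, or 4.57 per 10 kb, against 1.39 per 10 kb over the whole of X. Of the 19, 6 lay within 50 bp of an optimal summit, 31.6%, while 1.41% of the 17729 CACGTG sites on the 6 nuclear chromosomes did. Optimal summits were themselves dense here, with a median gap of 964.5 bp, against 33134.5 bp among the other optimal peaks on X. Dense summits alone bring more sites close to one, and the difference between the shares was not tested. The other 13 of the 19 sites had no optimal summit within 50 bp. They included the 5 sites between 1268 and 542 bp upstream of mdl-1 and the 2 in abts-4 at 14983 and 18377 bp downstream of the mdl-1 start. The last 2 were 639.5 and 2754.5 bp from the nearest pooled summit, which had a signal of 15.1.

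Among the 17 peaks, 6 had CACGTG within 50 bp of the summit, 35.3% (95% exact interval 14.2 to 61.7), against 231 of the other 1059, 21.8% (19.4 to 24.4), and 22.0% of all. These intervals overlap and cover counting error only. The 6 peaks with the word had a median signal of 565 and a range of 57.9 to 1134. The 11 without it had a median of 175 and a range of 90.6 to 551. The ranges overlapped, with peak 791 below all of those without the word. Away from mdl-1 the medians were 84.6 with and 70.3 without CACGTG. The peaks without the word near mdl-1 were thus still above the median of both kinds elsewhere.

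Other short words were counted in the same way. CACATG, an E-box with another centre, was found that close to 5 of the 17 summits, against 9.44% of the others, and 3 of these 5, peaks 3, 18 and 791, also held the CACGTG word. GAGAGA occurred at 3 of 17, against 35.4%, and GACGCA at 1 of 17, peak 3, against 21.7%. CAGCTG was present at 0 of the 17, against 3.59% of the others, while CAAGTG was also present at 0, against 5.57%, so both were rare everywhere. Each word was sought on both strands, the words were taken from an earlier scan of the same peaks, and none of these differences was tested. The median G and C content within 50 bp of the summit was 47.5% at the 17 peaks, from 36.6% to 57.4%, and 50.5% at the others.

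The cluster ended steeply downstream and in steps upstream. Of the 17 summits, 15 lay in a block of 14477 bp from peak 791 to peak 3 with no gap over 2022 bp, and the median gap between neighbouring summits of the 17 was 964.5 bp. Among the other optimal peaks on X the median gap was 33134.5 bp. Outside the window, the next optimal summit upstream was 445793 bp from mdl-1, with a signal of 216, and the next downstream was 92391 bp from it, with 60.0. In bins of 5 kb, the summed signal of all pooled regions was 47.1 from 20 to 15 kb upstream, 242 from 15 to 10 kb upstream, 234 from 10 to 5 kb upstream and 2963 in the last 5 kb before the start. It was 1641 in the first 5 kb downstream of the start, 1338 in the next and 41.9 from 10 to 15 kb. The 32 bins further out, from 20 to 100 kb on either side, held 0 to 80.6 with a median of 35.9, against 27.5 in the median 5 kb bin of X. The bins from 15 to 5 kb upstream, which take in the K11G12.6 pair and peaks 791 and 204, were thus above every one of these flank bins. In replicate 1 the bins from 20 kb upstream onward held 38.9, 159, 157, 1734, 866, 848 and 0. In replicate 2 the same bins held 18.1, 137, 118.8, 1354, 812, 601 and 18.6.

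**Figure D3:**
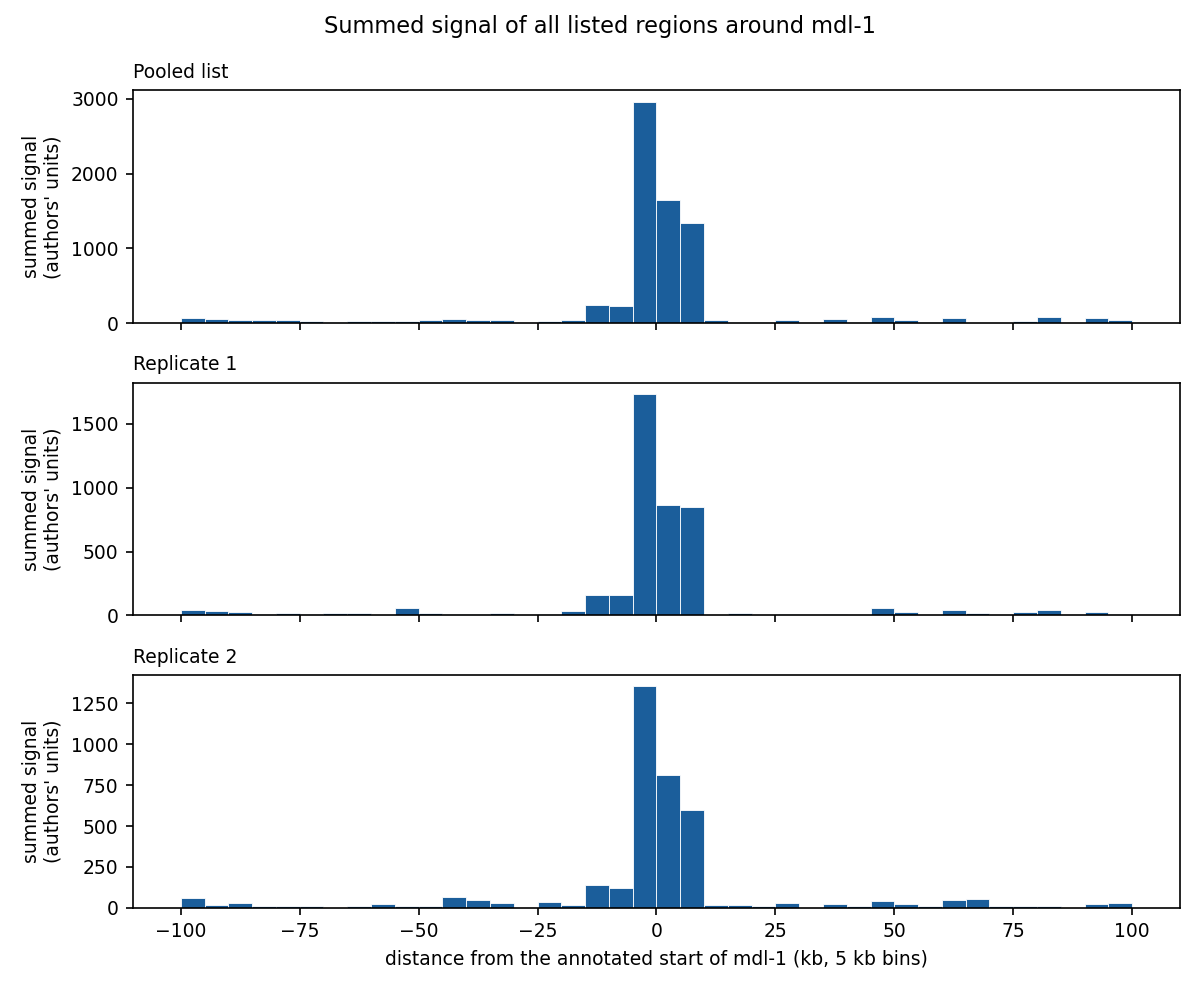
Summed signal of all listed regions, in the authors' units, in bins of 5 kb by distance from the annotated start of mdl-1 in kb, for the pooled list, replicate 1 and replicate 2. In each list the 3 highest bins run from 5 kb upstream to 10 kb downstream, at 2963, 1641 and 1338 in the pooled list.

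No locus elsewhere came near this cluster. Optimal summits within 20 kb of either end were counted for each of 19973 protein-coding genes, so that longer genes had wider windows. The mdl-1 window spanned 41549 bp, and those of aakg-1 and pqn-41 spanned 76738 and 73613 bp. Apart from mdl-1, 17 summits were counted for R03E9.2 and abts-4, whose windows take in the same peaks, that of abts-4 because the gene itself is long. Of all these genes, 70.8% had 0 summits and the mean was 0.439. Among the 19961 genes whose window shares no base with that of mdl-1, the highest count was 7 and the highest summed signal 1154, against 6149 at mdl-1. By summed signal the next 5 loci were those of aakg-1, which encodes a regulatory subunit of AMP-activated kinase, with 4 summits and 1154, F42D1.4 with 6 and 1126, mtm-3, a myotubularin-family gene, with 4 and 877, K02D10.8 with 7 and 871, and pqn-41 with 5 and 852. At aakg-1 1 peak made up most of the sum, with a signal of 725, while at K02D10.8 the highest of the 7 was 180. CACGTG was at 3 of the 4 aakg-1 summits, at 1 each of those of F42D1.4, mtm-3 and K02D10.8 and at 0 of those of pqn-41.

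Genes for the partners and relatives of MDL-1 had 0 to 2 optimal summits nearby, far fewer than mdl-1 but not fewer than most genes. The mxl-1 window held 1 optimal summit with a signal of 56.3. The best rank of any region of that window was 3435 in replicate 1 and 413 in replicate 2. These were taken separately in each list and not matched by position. The mxl-2 window held 0, with a best pooled rank of 9054. At mxl-3 there were 2, the stronger with 117, and at mml-1 there was 1, with 253 at rank 38 in the optimal list. The best ranks of any region of the mml-1 window were 40 in replicate 1 and 41 in replicate 2, likewise not matched by position. None of these 4 genes had an optimal summit in its own promoter window. The klu-1 window held 0 optimal summits, as did most gene windows, with a best pooled signal of 40.5 at rank 1435 in the pooled list and best ranks of 533 in replicate 1 and 3595 in replicate 2. The window of unc-119, whose wild-type copy is the usual selection marker in strains of this kind, likewise held 0, with a best pooled signal of 21.8 at rank 7504.

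**Figure D4:**
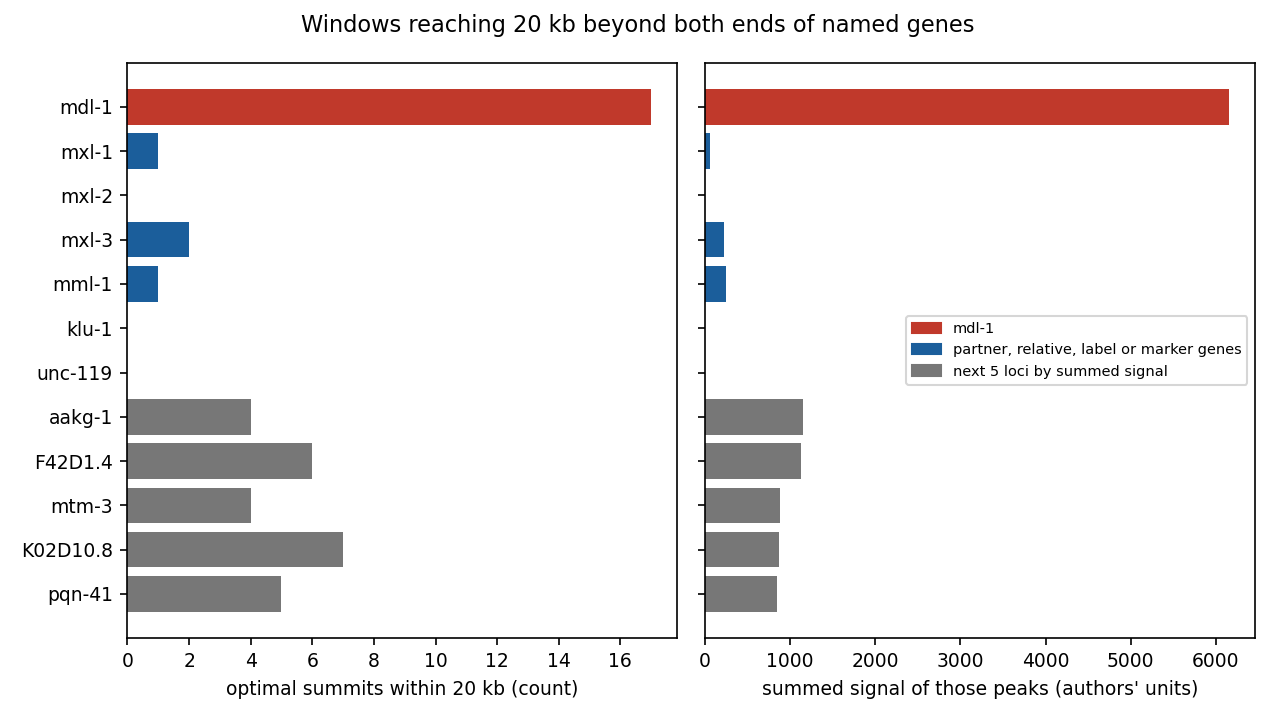
Number of optimal summits within 20 kb of each named gene (left) and their summed signal in the authors' units (right), as 1 bar per gene from the 1 optimal list. The mdl-1 window reaches 17 summits and a sum of 6149, against at most 7 summits and a sum of 1154 for the others.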

How the data were processed

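Binding of the tagged protein was measured by ChIP-seq in 2 replicates of 1 group. Per each replicate's deposited text file, the authors derived 30000 regions per replicate and 30000 from the pooled replicates, each from alignments and 1 further file, and thresholded an optimal list by IDR. The sources used here give no aligner, caller, settings or threshold. The deposited signal per region was used within a list or for the same peak in both replicates, and the deposited −log10 q-value only as described. Depth is unknown, since read counts were not analysed here, and intervals (exact, Clopper-Pearson, 95%) cover counting error in peaks only.

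Positions are ce11, counted from 1. Genes came from Ensembl release 115 (WBcel235) and sequence from the RefSeq copy of the same assembly. Lists on ce10 were left out, since no coordinate was converted. CACGTG had to lie whole within 50 bp of a summit. The 1076 strongest regions of each replicate, the length of the optimal list, stood for that replicate, and overlaps needed at least 1 bp.

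Named genes were mdl-1, genes holding or nearest to an optimal summit of its window, unc-119, klu-1, mml-1, mxl-1, mxl-2, mxl-3 and the 5 next loci by summed signal with separate windows. Other genes of the window are named for orientation. Members, lists and words were chosen with earlier results of these data known. With 1 group and no control group, no test was run. Alternatives were the window width, overlap in place of summit, stronger peaks, each replicate alone, the motif and promoter windows and the overlap rule. Software was Python 3.11.15 with pandas 2.3.3, numpy 2.4.6, scipy 1.17.1 and matplotlib 3.10.9, and the counting code was tested on planted data.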

Additional observations from a re-analysis of the deposited data

How the results depend on the processing

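The number of optimal summits near mdl-1, of those with CACGTG, of those shared by both replicates and of pooled regions kept stayed within 1.5 times in every alternative run. With 10 kb to each side the promoter count was 1 in place of 3, since K11G12.6 then lies outside, and the median signal was 283 in place of 234. Among optimal peaks at or above the median signal of that list the median was 258.5 and the share of the summed signal 8.02% in place of 5.73%, with fewer peaks in the denominator. With either replicate alone the promoter count ran from 3 to 5 and the median signal from 79.2 to 101, on the scales of those lists. No paired analysis was possible because there was 1 group. With 2 libraries and unknown depth, an absent region is one not listed, and nothing more. No control group or expression was analysed here, so neither regulation of mdl-1 nor the copy number of the locus could be measured.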
